A study of Mus musculus with 24 samples.

Results

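The nuclear genes of oxidative phosphorylation were examined in H3K4me3 counts from mouse cerebral cortex. Members were the protein-coding genes annotated in GENCODE M1 on mm9 with a symbol beginning Nduf, Uqcr, Sdha, Sdhb, Sdhc, Sdhd, Atp5 or Cox4 to Cox8, and a region counted for a member when it overlapped one of its annotated transcription start sites (TSSs). Of 94 gene entries that met this rule, 84 had a region, and together they were covered by 84 of the 17993 regions counted. These were 41 regions of complex I, 6 of complex II, 8 of complex III, 11 of complex IV and 18 of complex V. Not all are regions of subunits. They include 4 assembly factors in complex I and 2 in complex II. Proteins only related to subunits account for 1 region of complex IV and 2 of complex V, and Atp5d of complex V has 2 regions. The values given below for each complex cover all of these. Of all regions, 12985 overlapped a TSS of a protein-coding gene, and these promoter regions serve as a second reference below.

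Oxidative phosphorylation takes place in the inner mitochondrial membrane. Complexes I and II pass electrons from NADH and succinate to ubiquinone, complex III passes them to cytochrome c, complex IV passes them to oxygen, and complex V uses the resulting proton gradient to make ATP. Most subunits are encoded in the nucleus and a few in the mitochondrial genome, and neurons depend on the pathway for the energy used in ion pumping and synaptic transmission. Trimethylation of lysine 4 of histone H3 (H3K4me3) marks nucleosomes around the start sites of active genes.

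The study tagged chromatin of chosen cells with FLAG-tagged histone H2B (H2B-FLAG) in C57BL/6 mice and compared H3K4me3 with and without selection for the tag. In tandem ChIP-Seq (tChIP-Seq), chromatin was first precipitated with the anti-FLAG antibody M2 and then with an anti-H3K4me3 antibody, whereas single ChIP-Seq used the anti-H3K4me3 antibody alone. The line with genotype Rosa CAG-H2B-FLAG (hereafter Rosa) carries the tagged histone under the CAG promoter after germline recombination by Vasa-Cre, so nearly all cells of the cortex are tagged. The other line, Rosa26 CAG-floxed-pA-H2B-FLAG with CaMKCreERT2 (hereafter Camk2a), carries it only in Camk2a-positive neurons, after tamoxifen was given to males at 8 weeks of age at 1 mg per day for 5 days, with tissue taken about a month later. The sex and age of the Rosa animals were not used here, and tamoxifen was given in the Camk2a line, so line, treatment and any difference in sex or age cannot be told apart. Each of the 4 groups had 3 libraries, each library was made from a lysate of 2 animals, and p-values measure the spread between such lysates. Since whole cortex was used, fewer cells of a type and less H3K4me3 per cell cannot be told apart.

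Total counts per library ranged from 6316125 to 8644574 in Rosa single ChIP-Seq, from 4063200 to 4233144 in Camk2a single ChIP-Seq, from 1457261 to 1828371 in Rosa tChIP-Seq and from 2709729 to 3049130 in Camk2a tChIP-Seq. Over the members, the median count in a library lay between 108 and 684, and no member had fewer than 135 counts in a library of single ChIP-Seq or 36 in one of tChIP-Seq. All levels below are CPM values, counts scaled to library size with TMM factors over the 12 libraries, and log2 fold changes are given with their standard errors (SE) from edgeR's quasi-likelihood test. A region was called at a Benjamini-Hochberg adjusted p (adjusted over all 17993 regions) under 0.01. Excitatory neuron markers, including Slc17a7, which encodes a vesicular glutamate transporter, were higher in Camk2a than in Rosa tChIP-Seq at 11 of 11 regions, with a median log2 fold change of 1.28. Endothelial markers were lower at 10 of 10 regions, inhibitory neuron markers at 7 of 9, astrocyte markers at 8 of 10 and oligodendrocyte markers at 6 of 8. In the astrocyte and oligodendrocyte lists 1 region each was higher, Slc1a2 (0.38) and Mbp (1.18). No region overlapped a TSS of the 11 annotated microglia markers.

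DNA immediately upstream of 6 members is shown, so that promoters of members with and without a call can be compared. Ndufs6, Uqcrq and Cox4i1 differed between the lines in tChIP-Seq, Ndufb4 and Atp5g3 were among the members that fell most in tChIP-Seq against single ChIP-Seq in Rosa, and Atp5h was called in none of the comparisons. Each sequence is mm9, read 5′ to 3′ on the strand of the gene, and ends at the base before the outermost annotated start site. It is 200 bases long or shorter where it met an annotated exon. Capitals mark matches to the NRF1 motif (GCGCA, any base, then GCGC) or the ETS motif (CCGGAAG) on either strand.
Ndufs6 (chr13:73465991-73466190, minus strand): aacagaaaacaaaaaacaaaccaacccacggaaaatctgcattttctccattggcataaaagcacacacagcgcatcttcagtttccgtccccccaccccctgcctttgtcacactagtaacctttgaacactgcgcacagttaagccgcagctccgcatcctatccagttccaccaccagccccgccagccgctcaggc
Uqcrq (chr11:53244334-53244524, minus strand): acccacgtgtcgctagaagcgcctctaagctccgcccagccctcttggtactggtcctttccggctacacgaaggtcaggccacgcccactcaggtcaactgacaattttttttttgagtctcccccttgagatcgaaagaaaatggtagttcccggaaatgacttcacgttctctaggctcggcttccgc
Cox4i1 (chr8:123192013-123192189, plus strand): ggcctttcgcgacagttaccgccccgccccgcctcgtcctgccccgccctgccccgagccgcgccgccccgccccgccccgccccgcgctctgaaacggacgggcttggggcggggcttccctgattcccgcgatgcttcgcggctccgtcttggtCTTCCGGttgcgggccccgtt
Ndufb4 (chr16:37654540-37654739, minus strand): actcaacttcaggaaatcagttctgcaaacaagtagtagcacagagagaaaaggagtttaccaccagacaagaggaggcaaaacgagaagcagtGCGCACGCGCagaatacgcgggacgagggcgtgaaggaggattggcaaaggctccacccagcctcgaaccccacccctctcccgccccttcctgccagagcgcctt
Atp5g3 (chr2:73749384-73749583, minus strand): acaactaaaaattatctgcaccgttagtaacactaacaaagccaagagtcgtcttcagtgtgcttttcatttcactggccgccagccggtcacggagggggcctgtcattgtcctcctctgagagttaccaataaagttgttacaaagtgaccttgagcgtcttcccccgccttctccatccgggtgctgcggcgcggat
Atp5h (chr11:115281277-115281439, minus strand): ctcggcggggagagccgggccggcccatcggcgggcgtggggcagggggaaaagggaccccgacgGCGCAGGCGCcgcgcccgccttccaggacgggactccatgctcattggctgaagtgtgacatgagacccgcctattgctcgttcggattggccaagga

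The windows of Ndufb4 and Atp5h each held an NRF1 match, at bases 106 to 97 and 98 to 89 before the start site. That of Cox4i1 held an ETS match on the reverse strand, at bases 21 to 15 before the start site. In the other 3 windows no NRF1, ETS or YY1 (AAGATGGC) match was found. Base composition varied among them, with a GC content of 76.3% and 27 CpG dinucleotides in 177 bases for Cox4i1 and of 51.5% and 11 CpG dinucleotides in 200 bases for Atp5g3. Only the last 7 bases of the Ndufb4 window lie within its counted region, while the other 5 windows lie wholly within theirs.

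The motifs of factors known to control nuclear genes of mitochondria were also searched in RefSeq promoters (GRCm38.p6, 250 bases before to 50 after the start), for the 72 of 84 member symbols that could be matched. NRF1 (nuclear respiratory factor) and the ETS factor GABPA are known regulators of respiratory chain genes, and YY1 is a further regulator of mitochondrial genes. On either strand, the NRF1 motif was found for 18 members (25.0%), the ETS motif for 19 (26.4%) and the YY1 motif for 11 (15.3%), and none of these motifs contains another. Among 10457 protein-coding genes with a region these shares were 11.4%, 19.1% and 5.06%, and among all 17491 protein-coding genes they were 7.17%, 12.9% and 3.57%. A TATA box (TATAAA) was found for 5 members (6.94%) and for 8.19% of genes with a region. At least 1 of the NRF1, ETS and YY1 motifs was present for 42 members (58.3%), comprising 19 of 37 in complex I, 5 of 5 in complex II, 3 of 5 in complex III, 3 of 9 in complex IV and 12 of 16 in complex V. The RefSeq promoters and the windows printed above cover different stretches. In the RefSeq promoter Ndufs6 matched the NRF1 and YY1 motifs, Atp5g3 the NRF1 motif and Atp5h the ETS motif, none of which was found in their windows.

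A region was present for every member of complexes II and III. The 10 entries without a region were mostly isoforms with restricted expression. In complex IV these were Cox4i2, Cox6a2, Cox6b2, Cox7a1, Cox7b2, Cox8b and Cox8c, whereas their widely expressed counterparts Cox4i1, Cox6a1, Cox6b1, Cox7a2, Cox7b and Cox8a each had one. The others were Ndufa4l2, the pseudogene-like entry Atp5l-ps1 and a second entry named Ndufb8. Allowing a distance of 1000 bp added Cox6b2 alone. Cox4nb met the rule by its symbol only, is not a subunit, and shares the region of Cox4i1.

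Many of these promoters are shared. Of the 84 regions, 31 (36.9%) also contained a TSS of a protein-coding gene outside the symbol rule. The other 53 are called regions with no other protein-coding TSS below. Cox4i1 is among the 53, although its region also contains the TSS of Cox4nb, which met the rule. In comparison, 9.70% of promoter regions held the start sites of 2 or more protein-coding genes. For shared regions the counts cannot be divided between the genes. Examples are Ndufa7 with Rps28, a cytosolic ribosomal protein gene, Ndufb5 with Mrpl47, a mitochondrial ribosomal protein gene, and Atp5j with Gabpa, which encodes the GABPA factor named above. Regions had a median width of 2152 bp, from 1190 bp at Ndufs6 to 4068 bp at Uqcrh, beside 2083 bp for promoter regions.

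Members carried more H3K4me3 per length than the median promoter region. In Rosa single ChIP-Seq, the median level per length was 37.8 CPM per kb for members and 29.7 for promoter regions, and 73 of 84 members lay above the latter. In Camk2a single ChIP-Seq these levels were 37.1 and 29.4 CPM per kb, in Rosa tChIP-Seq 32.8 and 28.2, and in Camk2a tChIP-Seq 31.9 and 29.5. The number of members above the promoter median was 73, 66 and 57 of 84 in these groups, respectively. Per length in Rosa single ChIP-Seq, the highest members were Cox6c, a small subunit of complex IV, at 68.5 CPM per kb and Atp5g3, a gene for the c subunit of the complex V rotor, at 63.8. The lowest was Ndufb11, an X-linked accessory subunit of complex I, at 19.3 CPM per kb.

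Selection for Camk2a-positive neurons was examined by comparing Camk2a with Rosa in tChIP-Seq. In Camk2a, 2 of the 84 members gained and 3 lost H3K4me3 (5.95% called), while 31.6% of all regions and 33.5% of promoter regions were called. The median log2 fold change of the members was -0.03, with a range from -0.52 to 0.35, and 32 members lay above 0 and 52 below. Of promoter regions 51.4% lay below 0. Leaving aside the highest and the lowest 5% of values, all regions reached from -1.40 to 1.12. The depth was sufficient to bound most members, since the 95% interval lay within 0.5 of 0 on the log2 scale for 80 of 84 members, and for 8259 of the 17993 regions overall. Libraries of the 2 lines did not overlap at 7 members that were higher and 10 that were lower in Camk2a, where 24.8% and 23.6% of all regions did so. Scaling by library totals gave 1 higher and 6 lower members, with 2570 higher and 3315 lower of all regions in place of 3062 and 2620, and DESeq2 gave 1 and 1. Of the libraries left out in turn, 5 of 6 moved a count of members by more than 1.5 times, and they are named beside the members below.

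**Figure D1:**
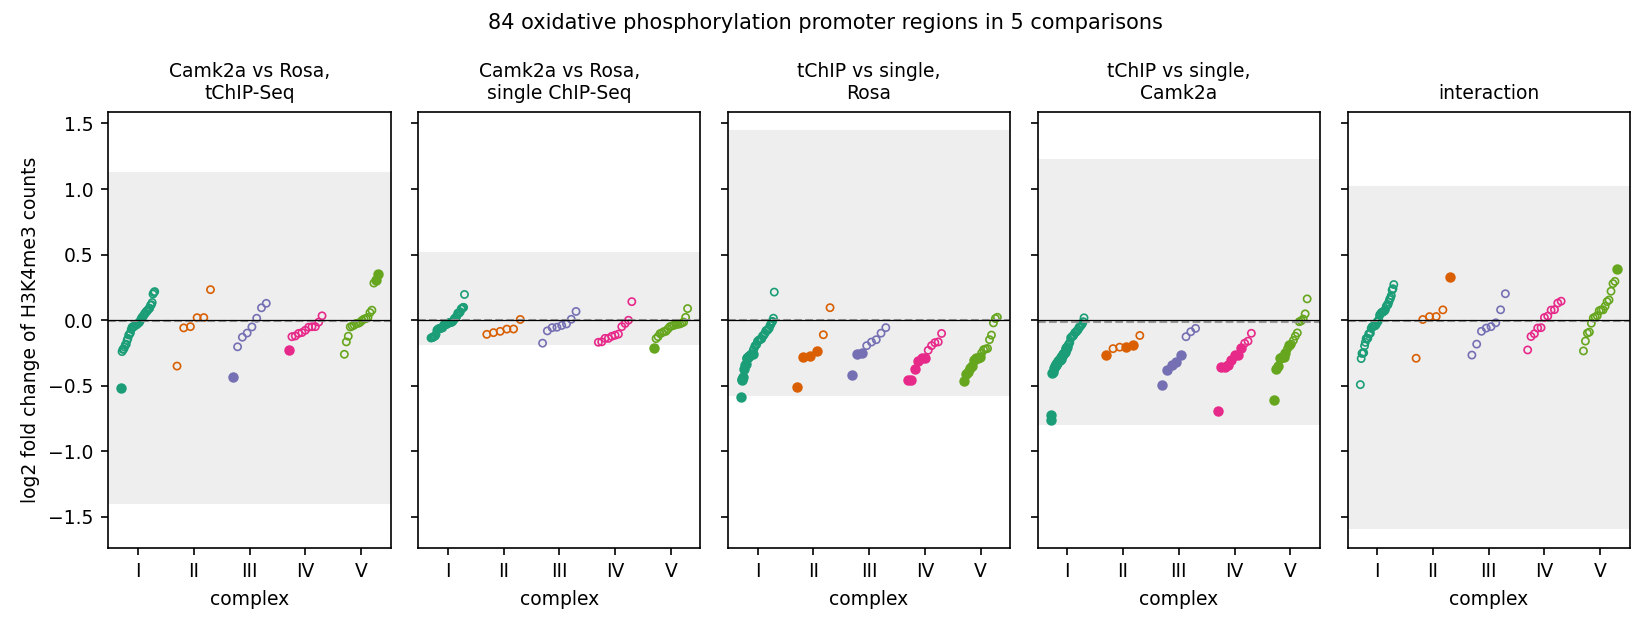
Log2 fold change of H3K4me3 counts (vertical axis) of the 84 member regions, grouped by complex (horizontal axis), in the 4 comparisons of 2 groups and the interaction. Filled points were called at an adjusted p under 0.01 and open points were not, the grey band spans the 5th to the 95th percentile of all regions and the dashed line is their median. Between the lines in tChIP-Seq the members lie from -0.52 to 0.35 and 5 of 84 are filled, whereas in tChIP-Seq against single ChIP-Seq 34 are filled in Rosa and 45 in Camk2a, all of them below 0.

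Ndufs6 (chr13:73465441-73466630), a zinc-binding accessory subunit of complex I, was at 34.4, 35.2 and 33.5 CPM in Rosa tChIP-Seq and at 23.0, 28.5 and 20.3 CPM in Camk2a tChIP-Seq. The 3 Camk2a libraries all lay below the 3 Rosa libraries, and the log2 fold change was -0.52 (SE 0.15, adjusted p = 0.0038), the largest fall among the members. In single ChIP-Seq it was at 43.9, 40.2 and 40.4 CPM in Rosa and at 36.2, 42.5 and 42.9 CPM in Camk2a, and the groups overlapped. The counts behind the tChIP-Seq values were 51 to 66 in Rosa and 55 to 79 in Camk2a. Its call was lost without Rosa tChIP-Seq replicate 1 (adjusted p = 0.016) or 2 (0.017) and without Camk2a replicate 1 (0.013) or 3 (0.030), with log2 fold changes below 0 in each case. With DESeq2 the adjusted p was 0.031.

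Uqcrq (chr11:53243244-53245374), a small accessory subunit of complex III, was at 69.4, 60.8 and 70.9 CPM in Rosa tChIP-Seq and at 54.8, 50.2 and 42.7 CPM in Camk2a tChIP-Seq. No Camk2a library reached the lowest Rosa library, and the region fell by 0.43 on the log2 scale (SE 0.11, adjusted p = 0.00063). Without FLAG selection, Uqcrq was at 76.5, 70.9 and 69.5 CPM in Rosa and at 62.0, 65.6 and 64.8 CPM in Camk2a. There the groups did not overlap either, but the log2 fold change of -0.17 was not called (adjusted p = 0.081). The region also contains a TSS of Gdf9, which encodes a growth factor of the oocyte.

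Cox4i1 (chr8:123190226-123193529), the widely expressed form of subunit 4 of complex IV, was at 131, 137 and 138 CPM in Rosa tChIP-Seq and at 106, 123 and 115 CPM in Camk2a tChIP-Seq. All Camk2a libraries lay below all Rosa libraries, and the region fell by 0.23 on the log2 scale (SE 0.07, adjusted p = 0.0080). The region also contains the TSS of Cox4nb, which is not a subunit, and the counts cannot be divided between these genes. Without FLAG selection, levels of 148, 159 and 151 CPM in Rosa and 141, 144 and 140 CPM in Camk2a did not overlap, and the log2 fold change was -0.11 (adjusted p = 0.091). Leaving out a library moved the adjusted p in tChIP-Seq over 0.01 for Rosa replicates 1 (0.014), 2 (0.030) and 3 (0.032) and for Camk2a replicates 1 (0.069) and 3 (0.012), and DESeq2 gave 0.043.

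Of the 2 members that rose, Atp5d is described here. Atp5d (chr10:79599218-79602556), the delta subunit of the central stalk of the F1 part, was at 83.5, 84.7 and 76.1 CPM in Rosa tChIP-Seq and at 106, 100 and 106 CPM in Camk2a tChIP-Seq. All Camk2a libraries were above all Rosa libraries, and the log2 fold change was 0.35 (SE 0.08, adjusted p = 0.00033). Without FLAG selection the lines overlapped, at 94.3, 97.2 and 94.9 CPM in Rosa and 91.6, 96.2 and 90.7 CPM in Camk2a. This region holds only 1 of the 4 annotated start sites of Atp5d and also start sites of its neighbour Dos. The region over the other 3 start sites (chr10:79603707-79606213) did not pass the test, at -0.17 on the log2 scale (SE 0.11, adjusted p = 0.26), so the rise was measured at the region shared with Dos and was not seen at the second Atp5d region.

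The number of higher members was 1 in place of 2 without Rosa replicate 2 or Camk2a replicate 2, and with DESeq2. The calls of Uqcrq and Atp5d were kept in each of these cases.

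**Figure D2:**
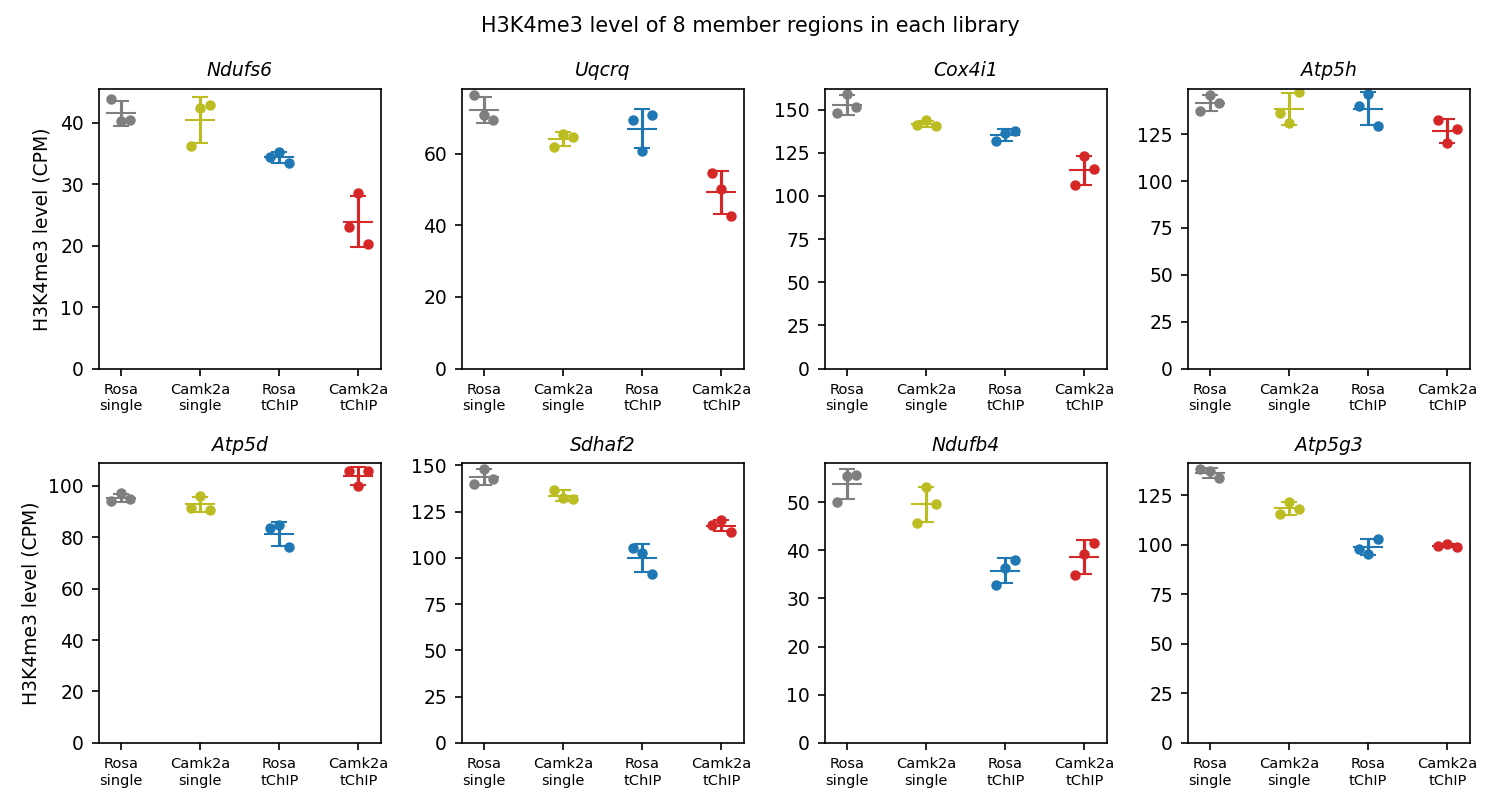
H3K4me3 level in CPM (vertical axis, from 0) of 8 member regions in the 3 libraries of each of the 4 groups (horizontal axis), with the mean and SD of each group beside the points. Ndufs6, Uqcrq and Cox4i1 are lowest in Camk2a tChIP-Seq, Atp5d is higher in Camk2a than in Rosa tChIP-Seq, and Ndufb4 and Atp5g3 are lower in both tChIP-Seq groups than in both single ChIP-Seq groups.

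Several subunits with central roles in the complexes were not called between the lines in tChIP-Seq. In complex I, Ndufs1, the largest iron-sulfur subunit, had a log2 fold change of -0.15 (SE 0.085, 95% interval -0.32 to 0.01), and Ndufv1, which binds NADH, one of 0.04. Atp5a1 and Atp5b, the alpha and beta subunits that form the catalytic head of complex V, both had a log2 fold change of -0.02. Their 95% intervals reached from -0.16 to 0.13 and from -0.20 to 0.15. For Sdha and Sdhb, the flavoprotein and iron-sulfur subunits of complex II, the log2 fold changes were -0.05 and -0.06. For Uqcrc1, a core protein of complex III, and Uqcrfs1, its Rieske iron-sulfur protein, they were -0.20 and -0.13, and for Cox5a of complex IV the log2 fold change was -0.01.

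At the ends of the range in each complex, further members were not called. The highest value in complex I was 0.22 at Ndufc1 (adjusted p = 0.18), in complex III 0.13 at Uqcrh, the hinge protein (adjusted p = 0.064), and in complex IV 0.03 at Cox7c. In complex II the assembly factors lay at both ends, with -0.35 at Sdhaf1 (adjusted p = 0.016), which helps to insert iron-sulfur clusters, and 0.23 at Sdhaf2 (adjusted p = 0.012), which attaches the flavin to Sdha. In complex V the lowest was Atp5l, subunit g of the membrane part, at -0.26 (adjusted p = 0.022). None of these passed the threshold.

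Isoforms could be compared where several had a region. Atp5g1, Atp5g2 and Atp5g3 encode the same mature c subunit with different targeting peptides. Atp5g1 was at 75.1, 62.0 and 68.2 CPM in Rosa tChIP-Seq and at 77.8, 86.2 and 86.6 CPM in Camk2a tChIP-Seq, without overlap, and its log2 fold change of 0.28 had an adjusted p of 0.011. Without Rosa tChIP-Seq replicate 1 or without Camk2a tChIP-Seq replicate 1 it was called (adjusted p = 0.0064 and 0.0054). Atp5g2 and Atp5g3 had log2 fold changes of 0.06 and 0.02, and the differences between the 3 genes were not tested. In complex IV the other isoforms had no region, so isoforms could not be compared there. Cox6a1, Cox6b1, Cox7a2, Cox7b, Cox8a and the related protein Cox7a2l had log2 fold changes from -0.12 to -0.05, none of them called. Ndufa4, first named as a subunit of complex I and since placed in complex IV, was at 0.21 (adjusted p = 0.065). It was counted in complex I here, so the ranges and sums given for complex IV leave it out.

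In single ChIP-Seq, where both lines give whole cortex, 1 of 84 members was called between the lines, lower in Camk2a, and 2.15% of all regions were called. None was higher in edgeR or in DESeq2, with 1 member higher at an unadjusted p under 0.05. The median log2 fold change was -0.04, with a range from -0.21 to 0.20, and 64 of 84 members lay below 0. Of promoter regions 58.0% lay below 0, with a median of -0.02. In the highest of 5 bins of promoter level, described below, the median of promoter regions was -0.08. Atp5g3 (chr2:73747862-73749997) was at 138, 137 and 134 CPM in Rosa and at 115, 121 and 118 CPM in Camk2a. The groups did not overlap, and the log2 fold change was -0.21 (SE 0.05, adjusted p = 0.0020). The adjusted p was 0.013 without Rosa single ChIP-Seq replicate 2, 0.024 and 0.010 without Camk2a replicates 1 and 3, and 0.056 with DESeq2. In tChIP-Seq the lines overlapped at Atp5g3, with 95.4 to 103 CPM in Rosa and 98.7 to 100 CPM in Camk2a.

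The effect of FLAG selection itself was examined by comparing tChIP-Seq with single ChIP-Seq within each line. In Rosa, where nearly all cells are tagged, 34 of 84 members (40.5%) were lower and 0 higher in tChIP-Seq, while 22.5% of all regions were lower and 24.7% higher. In Camk2a, 45 of 84 members (53.6%) were lower and 0 higher, while 22.6% of all regions were lower and 25.3% higher. Of promoter regions, 29.0% were lower in Rosa and 27.5% in Camk2a. In the highest of 5 bins of promoter level, described below, these shares were 50.4% and 40.9%. The members had a median log2 fold change of -0.22 in Rosa and -0.21 in Camk2a, beside -0.09 and -0.07 for promoter regions. Below 0 were 79 members in Rosa and 80 in Camk2a, beside 60.8% and 58.4% of promoter regions. The counts of 0 higher held in edgeR and in DESeq2, and 1 member in each line was higher at an unadjusted p under 0.05. The tChIP-Seq libraries lay wholly below single ChIP-Seq libraries at 52 members in Rosa and 56 in Camk2a, and at 32.1% and 30.6% of all regions. With library totals in place of TMM, 19 members were lower and 1 higher in Rosa, and 2522 of all regions were lower and 5298 higher in place of 4046 and 4439. In Camk2a the count of lower members was 20 with DESeq2 and 29 without Camk2a tChIP-Seq replicate 1, and the count of lower regions among all regions was 2414 and 3421 in these cases in place of 4058.

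These 2 comparisons share no library. In both lines 28 members (33.3%) were lower in tChIP-Seq, against 9.63% of all regions and 12.6% of promoter regions. They comprised 11 members of complex I (Ndufa2, Ndufa4, Ndufa5, Ndufb2, Ndufb3, Ndufb4, Ndufb11, Ndufs1, Ndufs4, Ndufs7 and Ndufv2), 3 of complex II (Sdha, Sdhd and Sdhaf2), 2 of complex III (Uqcrb and Uqcrc2), 5 of complex IV (Cox6b1, Cox6c, Cox7a2, Cox7b and Cox7c) and 7 of complex V (Atp5a1, Atp5b, Atp5c1, Atp5f1, Atp5g3, Atp5j and Atp5l). A further 6 were called in Rosa alone, 17 in Camk2a alone and 33 in neither. These calls are those of edgeR with TMM. With DESeq2, 20 members were lower in Camk2a, so at most 20 could be lower in both lines. Library totals also reduced the count in Rosa, as given above. The joint share among promoter regions of like level is not given here. Regions without another protein-coding gene's TSS gave 20 and 28 lower of 53 in Rosa and Camk2a, and shared regions 14 and 17 of 31. Of the F1 subunits of complex V, Atp5a1 (log2 fold change -0.41 in Rosa and -0.35 in Camk2a), Atp5b (-0.40 and -0.37) and Atp5c1 (-0.30 and -0.29) were lower in both lines, whereas Atp5e was called in neither (0.02 and -0.01). Of the 4 assembly factors of complex I, Ndufaf1 was called in Camk2a and Ndufaf2, Ndufaf3 and Ndufaf4 in neither line. All 4 lay below 0 in Camk2a, and at 3 of them the tChIP-Seq libraries lay wholly below the single ChIP-Seq libraries. In Rosa 3 lay below 0, and the libraries overlapped at each.

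Ndufb4 (chr16:37653066-37654546), an accessory subunit in the membrane arm of complex I, fell most in Rosa. It was at 50.1, 55.5 and 55.6 CPM in single ChIP-Seq and at 32.9, 36.4 and 38.1 CPM in tChIP-Seq, and fell by 0.59 on the log2 scale (SE 0.11, adjusted p = 1.1e-06). In Camk2a it was at 45.8, 53.2 and 49.6 CPM in single ChIP-Seq and at 34.8, 39.3 and 41.6 CPM in tChIP-Seq, and the log2 fold change was -0.37 (adjusted p = 0.00099). In both lines every tChIP-Seq library lay below every single ChIP-Seq library.

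Atp5g3 was at 97.6, 95.4 and 103 CPM in Rosa tChIP-Seq and at 99.4, 100 and 98.7 CPM in Camk2a tChIP-Seq, below the single ChIP-Seq levels given above in each line. The log2 fold changes were -0.46 in Rosa (SE 0.07, adjusted p = 2.1e-10) and -0.25 in Camk2a (adjusted p = 0.00035). Ndufs6, described above, fell most in Camk2a, by 0.76 on the log2 scale (SE 0.12, adjusted p = 1.3e-08), from 36.2 to 42.9 CPM in single ChIP-Seq. In Rosa its log2 fold change was -0.26 (adjusted p = 0.054). The Camk2a tChIP-Seq libraries also enter its comparison between the lines, so the fall in Camk2a and the difference between lines are not separate evidence.

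The other members that fell most in Camk2a are X-linked. Ndufb11, in a region shared with Rbm10, a splicing regulator, was at 70.6, 70.1 and 61.8 CPM in single ChIP-Seq and at 43.6, 45.5 and 33.5 CPM in tChIP-Seq, and fell by 0.72 on the log2 scale (SE 0.09, adjusted p = 7.0e-12). Cox7b, a small subunit of complex IV, was at 37.4, 38.4 and 39.4 CPM in single ChIP-Seq and at 22.3, 25.6 and 23.6 CPM in tChIP-Seq, and fell by 0.69 (SE 0.12, adjusted p = 2.2e-07). Neither gene's tChIP-Seq libraries overlapped the single ChIP-Seq libraries. In Rosa the log2 fold changes were -0.46 and -0.45 (adjusted p = 5.2e-05 and 0.0023). Ndufa1, the remaining X-linked member, was not called, at -0.26 in Rosa and -0.19 in Camk2a. Between the lines in single ChIP-Seq, Camk2a lay above Rosa without overlap at Ndufb11 (log2 fold change 0.20) and Cox7b (0.14). At Ndufa1 it lay below Rosa without overlap (-0.13). Between the lines in tChIP-Seq the values of Ndufb11, Cox7b and Ndufa1 were -0.05, -0.08 and -0.04. None of these line differences was called. In tChIP-Seq against single ChIP-Seq, the median log2 fold change over 439 X-linked promoter regions was -0.20 in Rosa and -0.12 in Camk2a. Over 12546 promoter regions of other chromosomes it was -0.09 and -0.07. The share called lower was 28.2% of X-linked promoter regions in Rosa and 24.1% in Camk2a, against 29.0% and 27.6% on other chromosomes.

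A few members lay on the other side of 0. Ndufa13, an accessory subunit of complex I, was at 67.2, 68.3 and 62.2 CPM in Rosa single ChIP-Seq and at 69.4, 78.7 and 82.0 CPM in Rosa tChIP-Seq, without overlap and without a call (log2 fold change 0.21, adjusted p = 0.023). Atp5d in Camk2a had a log2 fold change of 0.16 (adjusted p = 0.028) at the region shared with Dos. The second Atp5d region, over its other start sites, was called lower in this comparison.

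The size of these differences moved with the level of a promoter. Promoter regions were divided into 5 bins of 2597 regions each by their mean level per length. This placed 26 members in the top bin, 30 in the next and 20 in the middle bin. In Rosa, promoter regions of the top bin had a median log2 fold change of -0.20 in tChIP-Seq against single ChIP-Seq and the members among them one of -0.24. In the next bin these medians were -0.17 and -0.23, and promoter regions of the lowest bin had a median of 0.63. In Camk2a, the medians were -0.15 for promoter regions and -0.25 for members in the top bin, and -0.11 and -0.17 in the next. From the top bin to the middle bin, 50.4%, 37.3% and 29.5% of promoter regions were lower in Rosa. In Camk2a these shares were 40.9%, 29.5% and 23.1%. The part of promoter level in the members' fall was not tested.

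Members with and without a motif match were set side by side. In Rosa the median log2 fold change was -0.19 for the 42 regions whose gene matched the NRF1, ETS or YY1 motif and -0.22 for the 31 without a match, with 17 and 11 regions lower. In Camk2a the medians were -0.21 and -0.18, with 22 and 14 regions lower. Between the lines in tChIP-Seq they were -0.05 and -0.01. Atp5h, with its NRF1 match shown above, was at 138, 146 and 142 CPM in Rosa single ChIP-Seq and at 140, 147 and 129 CPM in Rosa tChIP-Seq, and those groups overlapped.

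Whether the line effect differed between tChIP-Seq and single ChIP-Seq was tested as an interaction over all 12 libraries. Of the 84 members 2 were called, both higher, while 26.9% of all regions were called, and the median was 0.02. The count of 0 lower was the same in edgeR and DESeq2, with 7 members lower at an unadjusted p under 0.05, and became 1 without Camk2a single ChIP-Seq replicate 1 or without Camk2a tChIP-Seq replicate 2. For Atp5d the interaction was 0.39 on the log2 scale (SE 0.10, adjusted p = 0.00077). Sdhaf2 (chr19:10598535-10601194), in a region shared with Cpsf7, a factor of RNA 3′ end processing, was at 140, 148 and 143 CPM in Rosa single ChIP-Seq, 137, 132 and 132 CPM in Camk2a single ChIP-Seq, 105, 103 and 91.2 CPM in Rosa tChIP-Seq and 117, 120 and 114 CPM in Camk2a tChIP-Seq. Its level was lowest in Rosa tChIP-Seq, where no library reached those of another group. Against single ChIP-Seq it fell by 0.51 on the log2 scale in Rosa (SE 0.07, adjusted p = 6.9e-13) and by 0.19 in Camk2a (adjusted p = 0.0041), and the interaction was 0.33 (SE 0.09, adjusted p = 0.0015). Without Rosa tChIP-Seq replicate 3 the adjusted p of Sdhaf2 was 0.019, and scaling by library totals gave 0.028 for Sdhaf2 and 0.013 for Atp5d. That scaling gave 0 higher and 4 lower members, and 1894 higher and 2970 lower of all regions in place of 2466 and 2375. Ndufs6 had an interaction of -0.49 that was not called (adjusted p = 0.017).

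The sum of H3K4me3 over the regions of a complex was lower after FLAG selection than without it for every complex and in both lines, without overlap between libraries. For complex I the sums were 3098 ± 23.6 CPM in Rosa single ChIP-Seq, 3069 ± 19.8 in Camk2a single ChIP-Seq, 2716 ± 27.1 in Rosa tChIP-Seq and 2651 ± 44.9 in Camk2a tChIP-Seq (SD, n = 3 libraries here and below). For complex V they were 1788 ± 24.7, 1703 ± 26.7, 1478 ± 47.3 and 1490 ± 18.8 CPM in the same order. The percent change in tChIP-Seq against single ChIP-Seq was between -17.5 (complex II) and -12.3 (complex I) in Rosa, and between -16.8 (complex IV) and -12.5 (complex V) in Camk2a. With library totals the groups still did not overlap, but the log2 ratios in Rosa shrank, from -0.19 to -0.079 for complex I, from -0.22 to -0.11 for complex III and from -0.23 to -0.12 for all members. Over regions with no other protein-coding TSS, complex II was reduced to Sdhb alone and overlapped in Camk2a. No test was made of these sums.

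The sum of complex IV did not overlap between the lines in either kind of ChIP-Seq, under TMM scaling and under each other scaling or summary tried. Leaving out shared regions is no check here, since every complex IV region was counted as unshared. The sum was at 1002 ± 8.33 CPM in Rosa and 938 ± 20.4 CPM in Camk2a single ChIP-Seq. In tChIP-Seq it was at 836 ± 4.38 CPM in Rosa and 781 ± 0.747 CPM in Camk2a. The percent change was -6.4 without and -6.6 with FLAG selection, and 10 of its 11 regions lay below 0 in each. Of the 11, Cox4i1 alone was called, in tChIP-Seq. Such a gap was not particular to complex IV. The sum of all members was also lower in Camk2a without overlap, changing by -3.2 percent without and -2.1 percent with FLAG selection. With DESeq2 size factors the all-member sum overlapped in tChIP-Seq. In single ChIP-Seq the sums of complexes II and V were lower in Camk2a without overlap too, at -4.8 percent each. Between the lines in tChIP-Seq the sums of complexes I, II, III and V overlapped and changed by -2.4, 0.5, -3.1 and 0.8 percent. With library totals the sums of complexes I, III and V no longer overlapped and all were lower in Camk2a, at log2 ratios of -0.10, -0.11 and -0.054, so the direction turned for complex V, and for complex II it turned with overlap (-0.058). Complex V then lay lower in Camk2a in both kinds of ChIP-Seq without overlap. With the median over its regions it was higher in tChIP-Seq (0.061) and lower in single ChIP-Seq (-0.057), also without overlap.

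**Figure D3:**
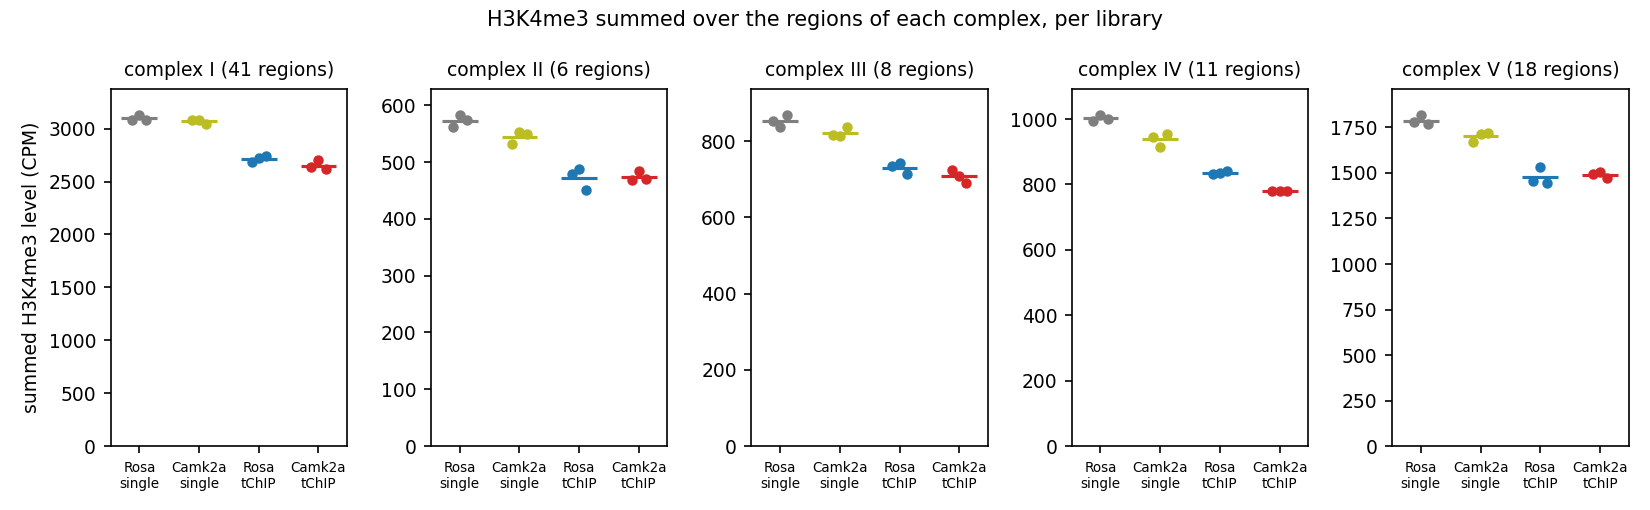
H3K4me3 level summed over the regions of each complex, in CPM (vertical axis, from 0, with a separate scale for each complex), in the 3 libraries of each of the 4 groups (horizontal axis). Points are libraries and lines are means. For every complex the tChIP-Seq libraries lie below the single ChIP-Seq libraries of the same line, and for complex IV the Camk2a libraries lie below the Rosa libraries in both kinds.

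Other gene groups of mitochondrial metabolism were described in the same comparisons. The lists of biogenesis regulators and of cytosolic and mitochondrial ribosomal proteins each share 1 region with the members. Of 29 regions of respiratory chain genes outside the symbol rule, such as Cycs, which encodes cytochrome c, and assembly factors, 0 were called between the lines in tChIP-Seq, and the median log2 fold change was -0.06. Of 17 regions of the tricarboxylic acid cycle and pyruvate dehydrogenase, which supply NADH and succinate to the chain, 0 were called and the median was -0.05. DESeq2 also called 0 regions of either group, and 5 of the 29 and 1 of the 17 were lower and 0 higher at an unadjusted p under 0.05. In glycolysis 1 of 15 regions was higher, Eno2, the neuronal enolase, at 0.88, and 1 was lower, Aldoc, an aldolase known from astrocytes, at -1.41. Among 15 regions of mitochondrial biogenesis regulators, the nuclear receptor gene Esrrg was higher (0.65), and Polg2, a subunit of the mitochondrial DNA polymerase, and Yy1 were lower (-0.68 and -0.24), and DESeq2 gave 0 higher and 2 lower in this list. Cytosolic ribosomal proteins had 1 higher and 2 lower of 78 regions, and mitochondrial ribosomal proteins 1 higher and 2 lower of 75. With DESeq2 these counts were 1 and 0, and 0 and 0. Summed levels of mitochondrial ribosomal proteins and of biogenesis regulators were lower in Camk2a without overlap in both kinds of ChIP-Seq. In tChIP-Seq the former were 4939 to 4978 CPM in Rosa and 4692 to 4787 CPM in Camk2a. The other lists of this paragraph overlapped between the lines in tChIP-Seq, except glycolysis, which was higher in Camk2a.

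In tChIP-Seq against single ChIP-Seq, the same gene groups stand beside the 22.5% of all regions that were lower in Rosa and the 22.6% in Camk2a. The tricarboxylic acid cycle had 7 lower of 17 in Rosa and 9 in Camk2a, with a median log2 fold change of -0.22 in each line and 0 higher. Respiratory chain genes outside the symbol rule had 7 lower and 1 higher of 29 in Rosa and 13 lower and 0 higher in Camk2a. Cytosolic ribosomal proteins had 33 lower and 0 higher of 78 in Rosa and 30 lower and 3 higher in Camk2a, with medians of -0.21 and -0.18. Mitochondrial ribosomal proteins had 12 lower (16.0%) and 0 higher of 75 in Rosa, a share below that of all regions, and 22 lower (29.3%) and 1 higher in Camk2a.

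Cell type markers were followed in the same libraries. Summed levels of excitatory markers were 1148 to 1179 CPM in Rosa single ChIP-Seq, 637 to 706 CPM in Rosa tChIP-Seq and 1488 to 1568 CPM in Camk2a tChIP-Seq. Those of astrocyte markers were 552 to 573, 659 to 711 and 386 to 396 CPM, and those of endothelial markers 361 to 387, 463 to 485 and 154 to 164 CPM in these groups. With FLAG selection, excitatory markers were lower at 9 of 11 regions in Rosa, whereas in Camk2a 9 were higher and 1 lower. Inhibitory markers had 3 higher and 0 lower of 9 in Rosa and 1 higher and 5 lower in Camk2a. The part of these shifts in cell type in the members' values was not tested.

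**Figure D4:**
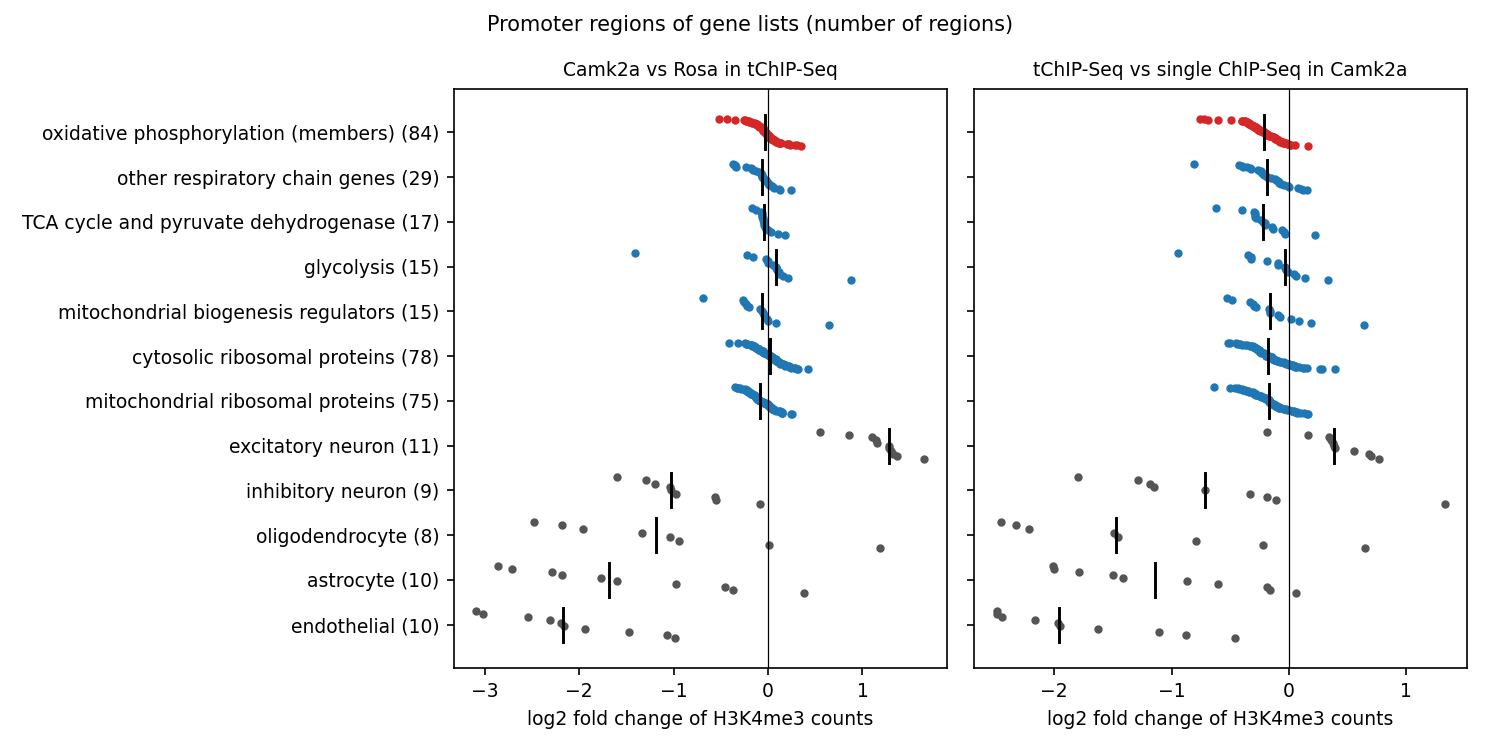
Log2 fold change of H3K4me3 counts (horizontal axis) of the promoter regions in each gene list (vertical axis, with the number of regions), between the lines in tChIP-Seq (left) and in tChIP-Seq against single ChIP-Seq in Camk2a (right). Points are regions and black bars are medians. On the left, the members lie between -0.52 and 0.35 with a median of -0.03, while the medians of the marker lists reach from -2.17 (endothelial) to 1.28 (excitatory neuron).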

How the data were processed

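Libraries of H3K4me3 single ChIP-Seq and tChIP-Seq came from 2 mouse lines, with 3 libraries in each of 4 groups. Per the study's methods and the submitters' processing notes, the authors removed reads from repeats (Bowtie2 2.1.0), mapped the rest to mm9 (Bowtie 1.0.0), removed duplicates (SAMtools, version 0.1.19 in the notes and a later version in the methods), called peaks with MACS, kept those reproduced in triplicate and counted reads in them with bedtools 2.17.0. The deposited values are whole-number counts without normalization on 17993 regions shared by the 12 libraries, and how the regions were merged was not given in the sources used here. Input and FLAG libraries were not analysed here.

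Comparisons between 2 groups used their own 6 libraries and the interaction all 12, in glmQLFit and glmQLFTest of edgeR 4.0.16 (R 4.3.3), TMM, no filter and no covariate. All regions were fitted and adjusted together by the Benjamini-Hochberg method, and called under 0.01. The SE is the size of the log2 fold change over the square root of F, and 95% intervals are 1.96 SE on either side. The step was tested on simulated data. Levels in CPM use TMM factors over 12 libraries. Gene lists were described by counts and medians, with no set test.

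One called member is not reported here. Regions were otherwise named if called between the lines in tChIP-Seq or in the interaction, if among the 3 called members that rose or fell most in another comparison, if highest or lowest of a complex between the lines in tChIP-Seq, or if on a list of core subunits and isoforms. Other members named, such as Atp5h, Ndufa13, the remaining X-linked member and members of the set lower in both lines, were chosen after their values were seen. The members and lists were chosen with earlier results of these data known. Genes came from GENCODE M1 on mm9, and window sequences from the mm9 genome. Alternatives were DESeq2 1.42.0 (Wald test, or size factors), library totals, a minimum of 10 counts, a threshold of 0.05, all 12 libraries in a single fit, unshared regions, a median over regions, a TSS distance of 1000 bp, a replicate block, and leaving out each library. Tables were handled with pandas 2.3.3 and numpy 2.4.6 and drawn with matplotlib 3.10.9.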

Additional observations from a re-analysis of the deposited data

Results flagged for a closer look

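At 2 members the effect of the line differed between tChIP-Seq and single ChIP-Seq by a test of the difference itself, the interaction in edgeR, in which 26.9% of all regions were called. For Atp5d it was 0.39 on the log2 scale (SE 0.10, adjusted p = 0.00077), with 3 of 3 Camk2a libraries above all Rosa libraries in tChIP-Seq and overlapping libraries in single ChIP-Seq. The second region of Atp5d had an interaction of -0.16. For Sdhaf2 the interaction was 0.33 (SE 0.09, adjusted p = 0.0015), with 3 of 3 Camk2a libraries above all Rosa libraries in tChIP-Seq and 3 of 3 below them in single ChIP-Seq. With library totals neither was called (adjusted p = 0.013 for Atp5d and 0.028 for Sdhaf2), and 0 members were higher and 4 lower. Both regions hold the TSS of another protein-coding gene, Dos and Cpsf7, whose part in the counts cannot be told apart, and over regions with no other protein-coding TSS 0 members were higher.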

How the results depend on the processing

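Of the values recalculated for counts of members and sums of complexes, 181 stayed close and 66 moved, and of 478 recalculated values of single regions 448 kept their direction and side of the threshold, 26 lost a call, 4 gained one and 0 called values changed sign, while 20 uncalled values did. Precision is limited by depth in tChIP-Seq, where the lowest member count was 36, and by 3 libraries a group. The causes of these changes were not tested, except where fewer regions entered.

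With the Wald test of DESeq2, members between the lines were 1 higher and 1 lower in tChIP-Seq and 0 lower in single ChIP-Seq (where 3691 regions had an adjusted p), and 20 were lower in tChIP-Seq against single ChIP-Seq in Camk2a. With DESeq2 size factors the log2 ratio of complex IV in Rosa was -0.25 in place of -0.26. At an adjusted p under 0.05, the counts became 4 higher and 6 lower between the lines in tChIP-Seq, 3 lower in single ChIP-Seq, 1 higher in each line in tChIP-Seq against single ChIP-Seq, and 5 higher and 2 lower in the interaction. A minimum of 10 counts gave 1 higher in Rosa.

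With library totals, the counts became 1 higher and 6 lower between the lines in tChIP-Seq, including Sdhaf1 and Atp5l, 0 lower in single ChIP-Seq, 1 higher and 19 lower in Rosa, and 0 higher and 4 lower in the interaction. Log2 ratios of sums became -0.10, -0.11, -0.16 and -0.054 for complexes I, III, IV and V and -0.10 for all members between the lines in tChIP-Seq, and 0.014 for complex I and -0.020 for all members in single ChIP-Seq. In Rosa they became -0.079, -0.17, -0.11, -0.15 and -0.16 for complexes I to V and -0.12 for all members.

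With the median over regions in place of the sum, log2 ratios became -0.11, -0.15 and -0.20 for complexes I, III and IV and -0.19 for all members in Rosa, and -0.15, -0.22 and -0.14 for complexes I, IV and V and -0.17 for all members in Camk2a. Between the lines they became -0.14 and 0.061 for complexes IV and V in tChIP-Seq and -0.016 for complex III in single ChIP-Seq. Over regions with no other protein-coding TSS, 0 members were higher between the lines in tChIP-Seq and in the interaction. In tChIP-Seq against single ChIP-Seq 20 were lower in Rosa and 28 in Camk2a. Log2 ratios over these regions were -0.064 for complex II (Sdhb alone) and -0.12 for complex III between the lines in tChIP-Seq. For complexes III and V in Camk2a they were -0.26 and -0.24. A TSS distance of 1000 bp gave 85 genes with a region.

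Leaving out each library in turn gave 1 to 2 higher and 1 to 3 lower between the lines in tChIP-Seq, 0 to 1 lower in single ChIP-Seq, 28 to 34 lower in Rosa, 29 to 39 lower in Camk2a, and 1 to 3 higher and 0 to 1 lower in the interaction. Libraries with the same replicate number did not deviate together, with correlations from -0.015 to 0.054 between their deviations, so the data do not show that the numbers pair them. Within a line, the same number may mark libraries from 1 lysate, which the sources used here do not state. With the replicate number as a block, 1 member was higher between the lines in tChIP-Seq and 3 were lower, with 1 lower in single ChIP-Seq, 34 in Rosa and 45 in Camk2a, and 2 higher in the interaction.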
